A study of Mus musculus with 2 samples.

Results

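The genes described here are 33 genes of sterol and fatty acid metabolism, read in T cells sorted from adult mouse skin and lung. The rule lists them by name, uses no threshold on a measured value, and matches them by Ensembl identifier. All 33 were found among the 27514 gene identifiers that the skin and lung gene lists share. They cover 6 roles. Sterol synthesis has 6 genes of the mevalonate steps and 10 of the steps from squalene to cholesterol. Another 5 genes sense sterols or encode the factors that respond, and 2 are sterol exporters. The fatty acid roles have 6 genes of synthesis and desaturation and 4 of carriage and esterification.

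The study profiled regulatory T cells (Tregs), CD4 T cells that restrain immune responses, by 10x Single Cell 3′ v2 sequencing of 1 back skin library and 1 lung library. Skin cells came from Foxp3-CreERT2GFP mice on C57Bl/6, in which the Foxp3 locus reports through GFP and also drives an inducible Cre. Lung cells came from Foxp3-GFP mice on C57Bl/6, labelled as the Tachilla strain. Collagenase freed the cells of both tissues, and the sort gate required CD45, CD3, CD4 and GFP together. Adult age is the only age given, no treatment is named, and the number of mice behind each library is not given in the sources used here. With 1 library per tissue there was no replicate check and no test was possible, and strain, library preparation, annotation and tissue cannot be told apart. Every interval below is a 95% interval that covers counting error only.

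Cells build cholesterol from acetyl-CoA through mevalonate, farnesyl diphosphate, squalene and lanosterol, while fatty acids are built from the same acetyl-CoA and then elongated, desaturated and esterified. The SREBP transcription factors switch these genes on when membrane sterol is low: SCAP escorts SREBP out of the endoplasmic reticulum, and the INSIG proteins hold it there when sterol is plentiful. In T cells the pathway is known for its demand during growth and division, since new membranes need sterols and fatty acids, and mevalonate products are also used to attach lipids to signalling proteins.

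Because these genes are known to share control, the start regions of the sterol sensing and synthesis members with the widest log2 ratios of (CPM + 5) between the tissues are shown (Cyp51, Insig2, Srebf2 and Msmo1), together with that of Hmgcs1, added after its motif was seen. The added 5 CPM narrows the ratios of sparse genes, so that Lss, whose plain ratio given below is wider, is not among them. Each run is 300 bases, from 250 before to 50 after the start that RefSeq annotates on GRCm38.p6, printed 5′ to 3′ on the gene's strand. Capitals mark CCAAT, read on either strand (so also as ATTGG), the letters of the box bound by NF-Y, a factor known to act beside SREBP. In Hmgcs1 they also mark TCACNCCAC, an SREBP-type element, and no marked motif overlaps another. Insig2 has 3 listed starts, of which the first in the table is shown.
Cyp51 chr5:4104648-4104947 minus strand: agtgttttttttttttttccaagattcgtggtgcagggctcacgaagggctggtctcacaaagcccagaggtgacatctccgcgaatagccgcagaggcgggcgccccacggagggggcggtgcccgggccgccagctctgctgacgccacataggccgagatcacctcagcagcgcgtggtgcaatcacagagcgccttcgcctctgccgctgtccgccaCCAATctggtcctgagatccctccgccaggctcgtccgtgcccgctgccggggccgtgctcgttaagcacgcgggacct
Msmo1 chr8:64733529-64733828 minus strand: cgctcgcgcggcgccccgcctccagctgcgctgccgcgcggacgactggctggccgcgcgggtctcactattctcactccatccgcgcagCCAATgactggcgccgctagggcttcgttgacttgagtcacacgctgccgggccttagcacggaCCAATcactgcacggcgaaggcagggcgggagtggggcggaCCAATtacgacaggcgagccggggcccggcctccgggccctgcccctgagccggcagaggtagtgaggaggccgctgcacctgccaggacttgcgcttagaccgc
Insig2 chr1:121332540-121332839 minus strand: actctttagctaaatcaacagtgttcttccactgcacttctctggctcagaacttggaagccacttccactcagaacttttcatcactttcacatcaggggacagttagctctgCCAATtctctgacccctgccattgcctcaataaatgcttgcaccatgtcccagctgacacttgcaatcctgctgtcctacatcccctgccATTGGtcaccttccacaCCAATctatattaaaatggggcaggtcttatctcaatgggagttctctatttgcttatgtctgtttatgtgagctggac
Srebf2 chr15:82147019-82147318 plus strand: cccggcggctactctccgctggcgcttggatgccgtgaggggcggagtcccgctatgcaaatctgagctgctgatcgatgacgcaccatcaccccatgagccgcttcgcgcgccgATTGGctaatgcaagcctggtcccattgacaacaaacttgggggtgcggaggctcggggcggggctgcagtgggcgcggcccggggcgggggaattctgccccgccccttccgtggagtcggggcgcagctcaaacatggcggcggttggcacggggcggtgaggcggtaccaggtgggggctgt
Hmgcs1 chr13:119690101-119690400 plus strand: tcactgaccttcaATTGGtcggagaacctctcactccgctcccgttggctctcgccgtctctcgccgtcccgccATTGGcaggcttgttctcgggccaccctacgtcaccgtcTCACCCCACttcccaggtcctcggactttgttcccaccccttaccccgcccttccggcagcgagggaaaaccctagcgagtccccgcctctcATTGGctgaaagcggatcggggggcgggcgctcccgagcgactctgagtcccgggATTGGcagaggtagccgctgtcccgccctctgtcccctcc

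Promoters were in the RefSeq table for 24 of the 33 genes, 13 of them among the 16 sterol synthesis enzymes. CCAAT occurred in a promoter of all 13 of these enzyme genes, against 41.1% of the 27025 genes in the table. Among the other 11 genes with a promoter it occurred in 7, which include Srebf2, Insig1 and Insig2. TCACNCCAC on either strand was in 1 of the 13 enzyme genes, Hmgcs1, against 1.44% of all genes. These matches describe letters in a window, and an absent match says only that those letters are not in it. Several genes have more than 1 listed start. Per promoter, CCAAT was in 81.2% of the 16 enzyme promoters and in 37.4% of the 32851 listed.

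The deposited matrices held 6601 skin barcodes with 16190303 unique molecular identifiers (UMIs, 1 per captured RNA molecule) and 8730 lung barcodes with 24293511. Cells with at least 200 genes, at most 10% mitochondrial UMIs and at least 1 UMI of Cd3d, Cd3e and Cd3g together numbered 6400 in skin (median 2083.5 UMIs) and 8349 in lung (median 2384); 82 barcodes occurred in both matrices. Foxp3 itself had a UMI in 365 skin and 302 lung cells. Other Treg markers were found in more cells, Ctla4 in 77.3% and 45.5% and Ikzf2 in 90.9% and 58.8%. The ribosomal protein share of UMIs was 19.0% (skin) and 38.2% (lung), and the median early response share 1.99% and 0.762%. Among markers of other cell types, each of 6 fibroblast genes had a skin level over 2 times its lung level, and they summed to 2142 against 78.0 CPM (counts scaled to 1000000 UMIs per library). All 6 lung epithelial genes had 0 UMIs in skin and summed to 3723 CPM in lung, where Sftpc had a UMI in 41.4% of the cells. Summed skin and lung levels were 61.7 and 243 CPM for endothelial, 469 and 601 for myeloid and 48.4 and 19.1 for B cell markers. They were 28.5 and 7.60 for keratinocyte, 33.9 and 0.725 for adipocyte and 26.4 and 11.2 for sebocyte markers. Single genes made much of several sums. Lyz2 had 92.9 CPM in skin and 394 in lung, while the other myeloid markers were each higher in skin. Among B cell markers Ebf1 had 30.7 and 2.26 CPM, while Cd79a had 1.71 and 3.03. Fabp4 held 522 of the 537 skin UMIs of the adipocyte list. Mgst1 held 402 of the 418 skin and 257 of the 262 lung UMIs of the sebocyte list. Scd3 and Awat1, which define sebocytes, had 0 UMIs in both. Cells with at least 5 UMIs of any 1 other-type list, called marked cells below, numbered 164 in skin and 221 in lung and held 6.19% and 5.27% of the UMIs. Levels below are CPM of the summed Cd3 cells, and since 3′ tags are not divided by length, no order between genes is drawn from them.

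Of the 33 genes, 25 were higher in skin than in lung in CPM and 19 under the 2 other scalings described below. In CPM the interval of the ratio lay above 1 for 20 genes, below 1 for 4 and across 1 for 9. The 4 lower in skin were Mvk, Srebf2, Elovl6 and Scd1. Under median-of-ratios scaling the interval lay above 1 for 18 genes and below 1 for 11, and without ribosomal and mitochondrial genes for 18 and 13. Counts of ratios and of intervals above or below 1, here and below, were made for the listed genes only and have no background share. The 5687 genes that reached 20 CPM in skin or lung leaned the same way, with a median log2 ratio of 0.36 on the log2(CPM + 5) scale. On that scale 14.9% of them passed 2-fold toward skin and 5.05% toward lung. Of the 33 genes, 21 passed the 20 CPM minimum. Among them 3 passed 2-fold toward skin (Cyp51, Dgat1 and Dgat2), 1 toward lung (Scd1) and 17 lay within 2-fold, so that the counts are near the background shares. Their median log2 ratio was 0.63, and 14 of the 21 lay above the median of all genes. Mvd, at 20.7 CPM, was just inside the minimum and Scap, at 19.0 CPM, just outside; the 12 genes outside it had log2 ratios from -0.36 to 0.85.

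The scale sets part of this picture. Median-of-ratios scaling, which centres the genes with at least 20 CPM in both libraries, lowers every log2 ratio of plain CPM by 0.33. A total without ribosomal protein and mitochondrial genes lowers it by 0.39. With 5 CPM added the shift varies with the level of the gene. Under either, Mvd, Sc5d, Dhcr7, Scap, Acly and Abcg1 changed side. With median-of-ratios scaling 0 members passed 2-fold toward skin, against 9.43% of all genes, and 2 toward lung (Scd1 and Srebf2), against 7.99%. Without ribosomal and mitochondrial genes 0 passed toward skin, against 8.69%, and 3 toward lung (with Elovl6), against 9.09%. The skin side held 74.8% of all 2-fold calls in CPM, 54.1% under the former scaling and 48.9% under the latter. The plot of levels gives the CPM values of all 33 genes.

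**Figure D1:**
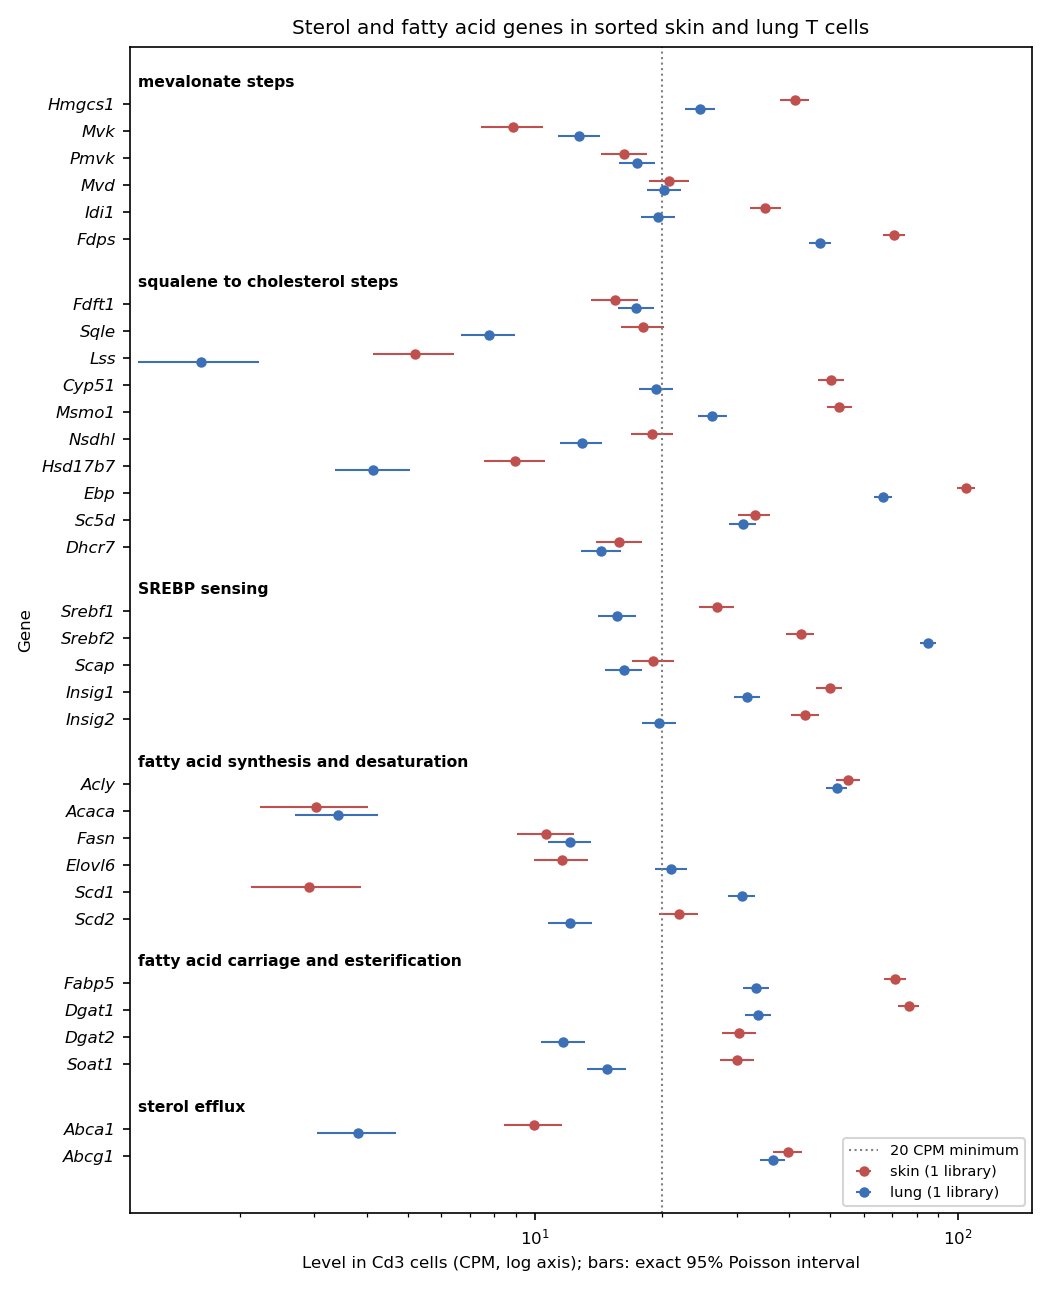
Levels of the 33 genes in Cd3 cells of the skin library (red) and the lung library (blue), in CPM on a log axis, grouped by role; bars are exact Poisson 95% intervals and the dotted line is the 20 CPM minimum. Cyp51, Dgat1 and Dgat2 sit to the right in skin, while Scd1 and Srebf2 sit to the right in lung.

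Along the mevalonate steps the skin excess lay at the entry and the exit of the chain. Hmgcs1, which makes the HMG-CoA that feeds the chain, had 41.1 CPM (38.0 to 44.4) in skin and 24.6 (22.7 to 26.7) in lung. Idi1, the isomerase that readies the building blocks for joining, had 35.1 CPM (32.2 to 38.1) in skin and 19.6 (17.8 to 21.5) in lung. Fdps, which joins them into farnesyl diphosphate, had 70.8 CPM (66.7 to 75.1) and 47.2 (44.5 to 50.1). For each of these genes the skin level was the higher and the intervals did not overlap, with ratios of 1.67, 1.79 and 1.5. Mvk, the kinase that phosphorylates mevalonate, was lower in skin, at 8.85 CPM (7.44 to 10.4) against 12.7 (11.3 to 14.2). Pmvk, the next kinase, had 16.2 and 17.5 CPM, and Mvd, the decarboxylase that follows, had 20.7 and 20.2 CPM. For Pmvk and Mvd the intervals of the libraries overlapped. Summed over the 6 genes, skin had 193 CPM and lung 142, a ratio of 1.36 (1.29 to 1.43) that became 1.08 under median-of-ratios scaling and 1.03 (0.985 to 1.09) without ribosomal and mitochondrial genes.

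From squalene to cholesterol the widest ratios were at the oxidation of squalene, its closure to lanosterol and the demethylation of lanosterol. Cyp51, the lanosterol demethylase (chromosome 5, 4081145 to 4104746, minus strand, GRCm38), had 50.3 CPM (46.8 to 53.9) in skin and 19.4 (17.6 to 21.2) in lung, 2.59-fold higher in skin (2.31 to 2.92). Msmo1, which removes further methyl groups from the ring, had 52.5 CPM (49.0 to 56.2) and 26.3 (24.3 to 28.4). Sqle, the squalene epoxidase, had 18 CPM (16 to 20.2) against 7.77 (6.68 to 8.98), a 2.32-fold ratio from a gene below the minimum. Lss, the cyclase that closes the ring, was sparse, with 82 UMIs in skin and 38 in lung, 5.18 against 1.62 CPM. Each of these skin levels lay above its lung interval.

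Ebp, the isomerase that shifts the ring's double bond, had 104.7 CPM (99.8 to 109.9) in skin and 66.7 (63.4 to 70.1) in lung. Nsdhl and Hsd17b7, which work with Msmo1 in demethylation, had 18.9 against 12.9 CPM and 8.98 against 4.14 CPM. Further steps gave near-equal levels. Fdft1, the squalene synthase, had 15.4 CPM in skin and 17.4 in lung, and Sc5d, the desaturase of the ring, had 33.1 and 31.0. Dhcr7, the reductase of the last step, had 15.8 and 14.3 CPM. The ratio intervals of Fdft1, Sc5d and Dhcr7 all included 1 in CPM, so a difference was not detectable at this depth on that scale. Over the 10 genes the sum was 323 CPM in skin and 201 in lung, a ratio of 1.60 (1.54 to 1.67) that was 1.27 under median-of-ratios scaling and 1.22 without ribosomal and mitochondrial genes.

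Counted per cell, sterol synthesis UMIs were spread over many cells. Each cell was thinned to 1000 UMIs, and the 76 lung cells and 0 skin cells below that depth were dropped. Then 64.0% of skin cells and 75.3% of lung cells had 0 UMIs of the 16 enzymes. Cells with 2 or more made up 10.0% of skin cells (9.32 to 10.8, Clopper-Pearson) and 5.33% of lung cells (4.86 to 5.84). A Cyp51 UMI was in 10.6% of skin and 4.73% of lung cells as deposited, and in 4.69% (4.18 to 5.23) and 1.78% (1.5 to 2.09) after thinning. In cells of other types without a Cd3 UMI, the thinned Cyp51 share was 1 of 19 in skin and 2 of 134 in lung. Those cells had medians of 1646 and 2085 UMIs as deposited. Most cell types make sterols, so these shares do not measure free RNA.

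The genes of sterol sensing and response split between the tissues. Srebf2, which encodes SREBP2, the main activator of the sterol genes (chromosome 15, 82147181 to 82205379, plus strand), was lower in skin, with 42.5 CPM (39.3 to 45.8) against 85.0 (81.4 to 88.9) in lung. The skin to lung ratio was 0.499 (0.457 to 0.545), a log2 ratio of -0.92 with 5 CPM added, just short of 2-fold; it passed 2-fold under both other scalings. A Srebf2 UMI was in 9.78% of skin and 20.6% of lung cells, and after thinning in 4.58% (4.08 to 5.12) and 8.07% (7.5 to 8.68). Insig2, a retention protein of the SCAP-SREBP complex (chromosome 1, 121304353 to 121332589, minus strand), ran the other way, with 43.6 CPM (40.4 to 46.9) in skin and 19.7 (17.9 to 21.6) in lung. Insig1, the retention protein that is itself an SREBP target, had 49.7 CPM (46.3 to 53.3) and 31.7 (29.5 to 34.1). Srebf1, whose products act mainly on fatty acid genes, had 26.9 CPM (24.4 to 29.6) in skin and 15.6 (14.1 to 17.3) in lung. Scap, the escort, had 19.0 and 16.2 CPM, with a ratio of 1.17 (1.01 to 1.37).

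SREBP2 is known to activate the sterol synthesis genes, and the 16 enzymes were not of 1 order beside Srebf2. In CPM 10 had a ratio interval above 1 (the opposite side to Srebf2), 1 below (Mvk) and 5 across 1. Under both other scalings 9 lay above 1: Hmgcs1, Idi1, Fdps, Sqle, Lss, Cyp51, Msmo1, Hsd17b7 and Ebp. Those below 1, on the side of Srebf2, numbered 5 under median-of-ratios scaling (Mvk, Pmvk, Mvd, Fdft1 and Sc5d) and 6 without ribosomal and mitochondrial genes (Dhcr7 added). The 5 genes of sterol sensing and response summed to 182 CPM in skin and 168 in lung, a ratio of 1.08 in CPM. That ratio turned to 0.858 under median-of-ratios scaling and 0.822 without ribosomal and mitochondrial genes.

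**Figure D2:**
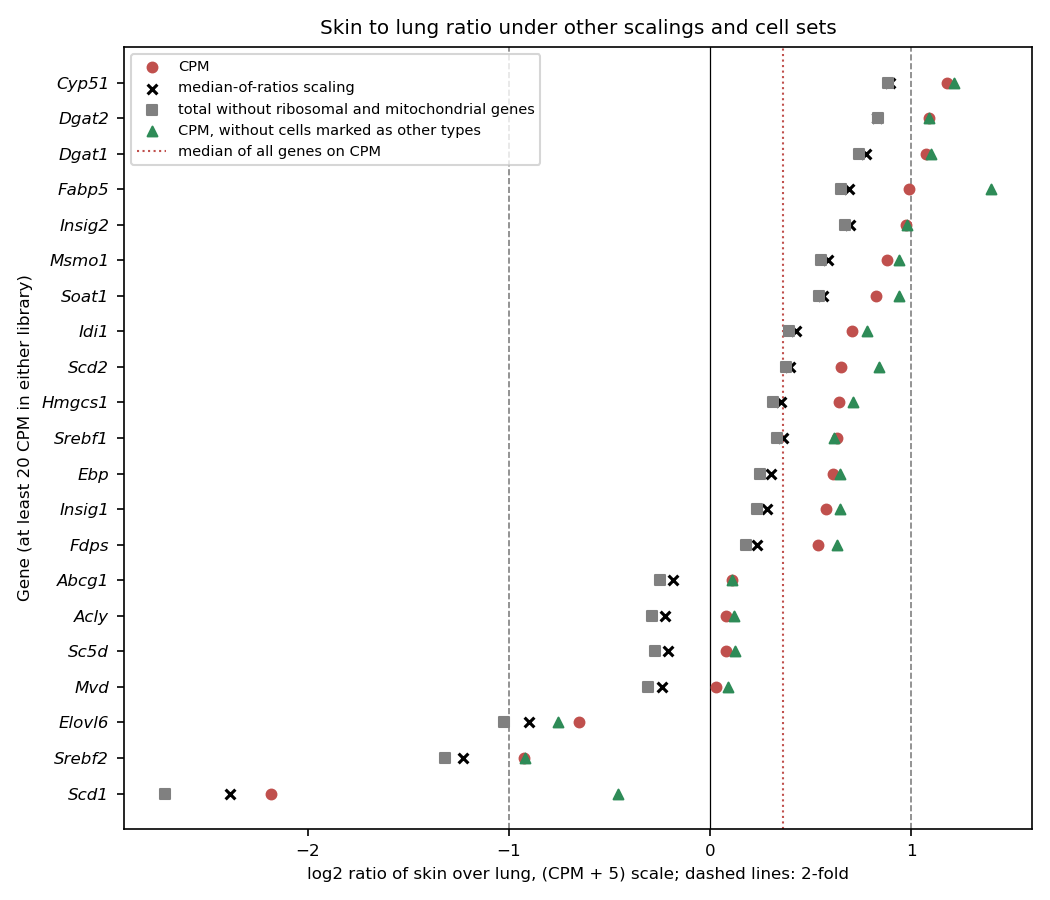
Log2 ratio of skin over lung on the (CPM + 5) scale for the 21 genes with at least 20 CPM, in CPM (red), under median-of-ratios scaling (crosses), under a total without ribosomal and mitochondrial genes (squares) and in CPM without marked cells (triangles); dashed lines are 2-fold. Cyp51, Dgat1 and Dgat2 drop inside 2-fold under both scalings, Srebf2 passes it, and Scd1 moves most when marked cells are left out.

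In fatty acid synthesis the entry enzymes had near-equal levels in CPM and the desaturases differed. Acly, which cleaves citrate to acetyl-CoA, had 55.1 CPM (51.5 to 58.8) in skin and 51.8 (48.9 to 54.8) in lung. Acaca, the carboxylase that commits acetyl-CoA to fatty acids, was sparse at 3.03 and 3.41 CPM. Fasn, the fatty acid synthase, had 10.6 and 12.1 CPM. The ratio intervals of Acly, Acaca and Fasn included 1 in CPM, but those of Acly and Fasn lay below 1 under both other scalings, and that of Acaca without ribosomal and mitochondrial genes. Elovl6, which elongates the product of Fasn, was lower in skin, with 11.6 CPM (9.95 to 13.4) against 21.0 (19.2 to 22.9). Scd2, a stearoyl-CoA desaturase, had 21.9 CPM (19.6 to 24.3) in skin and 12.1 (10.8 to 13.6) in lung.

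Scd1, the other stearoyl-CoA desaturase (chromosome 19, 44394455 to 44407879, minus strand), had the widest difference of the 33 genes, 2.91 CPM (2.13 to 3.88) in skin and 30.9 (28.7 to 33.2) in lung. Lung was 10.6-fold higher (7.88 to 14.6). Of the 724 lung UMIs of Scd1, 650 (89.8%) lay in the 221 marked cells, 395 lay in 10 cells and 1 cell held 58. In the 116 lung Cd3 cells with at least 5 lung epithelial UMIs Scd1 reached 880 CPM (814 to 950.5), and in the 32 such cells without a Cd3 UMI it reached 3101 CPM (2822 to 3401). In the 8128 unmarked lung cells the level was 3.33 CPM (2.62 to 4.18), against 1.08 (0.616 to 1.75) from 16 UMIs in unmarked skin cells. Without marked cells Scd1 was under the 20 CPM minimum in both libraries, and its ratio of skin over lung was 0.323 (0.176 to 0.561). In cells with a Foxp3 UMI there were 3 UMIs of Scd1 in each tissue. Per cell, the thinned share with a Scd1 UMI was 0.188% in skin and 0.556% in lung, against 13.4% (8.16 to 20.4) in lung cells of other types; as deposited the shares were 0.547%, 1.26% and 15.2%.

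**Figure D3:**
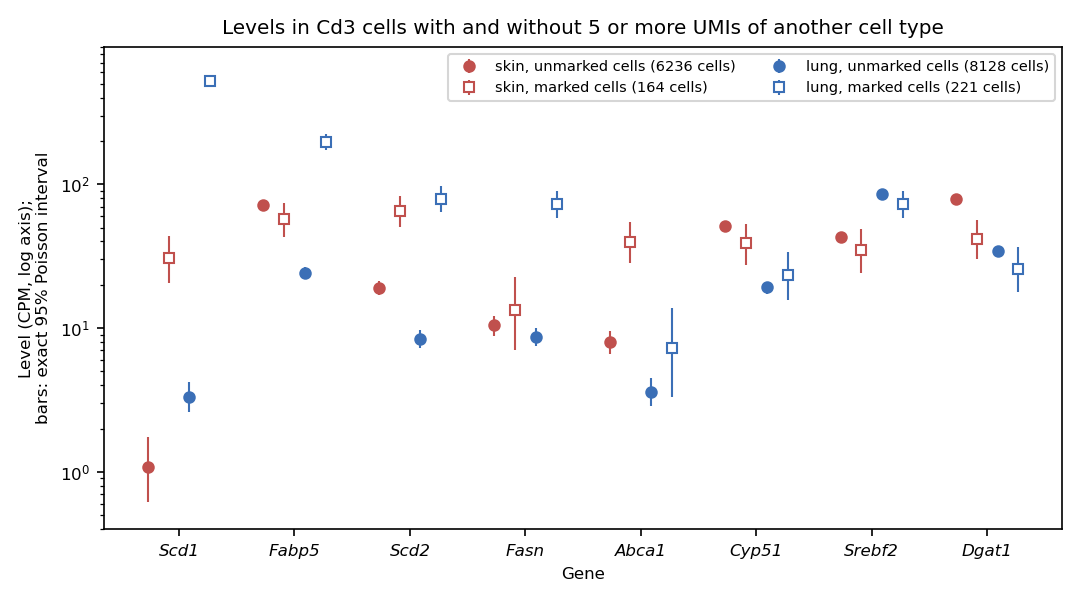
Levels (CPM, log axis, exact Poisson 95% intervals) of 8 genes in Cd3 cells without (filled circles) and with (open squares) at least 5 UMIs of an other-type marker list, in skin (red) and lung (blue). Scd1, Fabp5, Scd2 and Fasn are highest in the 221 marked lung cells, while Cyp51, Srebf2 and Dgat1 keep their tissue order in unmarked cells.

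Other members moved less with the marked cells. In lung these cells held 34.5% of the Scd2 UMIs, 31.8% of the Fasn UMIs and 31.1% of the Fabp5 UMIs, against 5.27% of all UMIs. In all, 12 of the 33 genes in lung and 5 in skin had at least 2 times the marked cells' share of UMIs. The share of all genes past this mark was not counted, so no reading is drawn from these numbers. In skin, 24.8% of the 157 Abca1 UMIs were in marked cells. Without marked cells the skin to lung ratio of Scd2 was 2.27 (1.88 to 2.74) in place of 1.80, and that of Abca1 2.21 (1.65 to 2.97) in place of 2.61. Fasn moved from 0.879 to 1.20 (0.966 to 1.49). The ratios of Cyp51 (2.66), Insig2 (2.23), Dgat1 (2.31), Dgat2 (2.59) and Srebf2 (0.501) were close to those with all cells. In CPM the ratio of the summed 6 fatty acid synthesis genes was 0.800 (0.753 to 0.850) with all cells. Without marked cells it was 1.04 (0.972 to 1.11), whereas the 16 sterol enzymes went from 1.5 to 1.58 (1.53 to 1.63). With all cells the fatty acid synthesis sum was 0.636 under median-of-ratios scaling and 0.609 without ribosomal and mitochondrial genes. The sterol enzyme sum was 1.19 and 1.14 under these scalings. Ratios in the cell subsets of this paragraph are in CPM only. Without marked cells 4 of 19 members measured passed 2-fold toward skin (Fabp5 added), against 15.4% of 5583 genes, and 0 toward lung, against 4.93%. In the 1684 skin and 1540 lung cells with 0 UMIs of every other-type marker, the ratio was 1.70 (1.56 to 1.84) for the 16 sterol enzymes, 2.69 (2.32 to 3.12) for the carriage and esterification genes and 1.01 (0.860 to 1.19) for the fatty acid synthesis genes. There Srebf2 was at 0.551 (0.450 to 0.673) and Elovl6 at 0.336 (0.207 to 0.529).

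Of the 6 roles, carriage and esterification had the widest skin excess on all 3 scales, and all 4 of its genes were higher in skin. Dgat1, which esterifies diacylglycerol to triglyceride (chromosome 15, 76502015 to 76511953, minus strand), had 76.7 CPM (72.4 to 81.1) in skin and 33.8 (31.4 to 36.2) in lung. Dgat2, an unrelated enzyme of the same reaction (chromosome 7, 99153658 to 99182719, minus strand), had 30.4 CPM (27.7 to 33.2) against 11.6 (10.3 to 13.1). Soat1, which esterifies cholesterol for storage, had 30.1 CPM (27.4 to 32.9) and 14.8 (13.2 to 16.4). Fabp5, a cytosolic fatty acid carrier, had 71.2 CPM (67.1 to 75.5) in skin and 33.4 (31.1 to 35.8) in lung. Among unmarked cells Fabp5 was 72.1 and 24.3 CPM, a ratio of 2.97 (2.67 to 3.30) in place of 2.13. Their summed ratio was 2.23 (2.11 to 2.35) in CPM and 1.77 and 1.70 under the other scalings. A Dgat1 UMI was in 16% of skin and 8.02% of lung cells as deposited, and in 7.5% (6.87 to 8.17) and 2.97% (2.62 to 3.36) after thinning. In thinned lung cells of other types the Dgat1 share was 0.746%, from 1 of 134 cells.

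The exporters differed from each other. Abca1, which loads cholesterol onto lipid-poor apolipoprotein, had 9.92 CPM (8.43 to 11.6) in skin and 3.80 (3.05 to 4.67) in lung. Abcg1, which passes cholesterol to lipoprotein particles, had 39.7 CPM (36.7 to 42.9) and 36.5 (34.1 to 39.0), a ratio of 1.09 (0.980 to 1.21). Under both other scalings the Abcg1 interval lay below 1. The summed exporters had a ratio of 1.23 (1.12 to 1.36) in CPM. It was 0.979 (0.890 to 1.08) under median-of-ratios scaling and 0.937 (0.852 to 1.03) without ribosomal and mitochondrial genes.

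Cells with a Foxp3 UMI are the subset nearest to the sorted label, but they are few and hold few UMIs of each gene. In them the 16 sterol enzymes summed to 569.8 CPM in skin and 389 in lung, a ratio of 1.47 (1.29 to 1.67). The ratio was 2.36 (1.47 to 3.91) for Cyp51, 2.97 (1.64 to 5.70) for Idi1, 2.32 (1.58 to 3.47) for Fabp5 and 0.414 (0.293 to 0.580) for Srebf2. Dgat1 and Dgat2 came to 1.39 (0.964 to 2.02) and 1.08 (0.526 to 2.24), from 78 and 19 skin UMIs, and Sqle to 1.04 (0.549 to 2.01). Their intervals included 1. Ratios in this paragraph are in CPM only. With all cells the enzyme ratio was 1.5 in CPM, 1.19 under median-of-ratios scaling and 1.14 without ribosomal and mitochondrial genes.

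Cells were then compared within each library, where strain and preparation are shared. Cells with at least 2 UMIs of a list of 16 cell cycle genes, called cycling below, numbered 739 in skin (11.5%) and 532 in lung (6.37%). In lung 5.78% of 5120 genes passed 2-fold toward cycling cells and 1.54% toward other cells; of 21 members measured, 2 (Fdps and Ebp) were higher and 0 lower. In skin the shares were 1.66% and 0.0707% of 5659 genes, and of 24 members measured 0 were past 2-fold either way. The median log2 ratio of the measured members was 0.50 in lung, against 0.19 for all genes, and 0.20 in skin, against 0.03.

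The sterol enzymes leaned toward cycling cells in both tissues. Their sum was 572 CPM in cycling and 310.1 CPM in other lung cells, a ratio of 1.84 (1.75 to 1.95). In skin it was 629.8 and 489 CPM, a ratio of 1.29 (1.22 to 1.36). The difference between these ratios was not tested. The ratio interval lay above 1 for 11 of the 16 enzymes in lung and 7 in skin, and below 1 for 0 in either. The same count over all genes was not made, and the median of all genes given above leaned the same way. Fdps was 94.6 against 40.4 CPM in lung and 103.2 against 63.1 in skin. Pmvk, whose tissue ratio in CPM was 0.931 (0.793 to 1.09), was 2.08-fold higher in cycling cells of both, 32.0 against 15.3 CPM in lung and 28.0 against 13.5 in skin. Ebp was 2.20-fold higher (1.95 to 2.47) in lung and 1.14-fold (1.01 to 1.28) in skin.

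Members of other roles went both ways. Fabp5 was higher in cycling cells of both libraries, 1.70-fold (1.42 to 2.03) in lung and 1.79-fold (1.57 to 2.04) in skin. Abcg1 was lower, with ratios of 0.750 (0.592 to 0.941) and 0.799 (0.638 to 0.991), and so was Dgat2, with 0.634 (0.394 to 0.972) and 0.682 (0.519 to 0.885). Srebf2 had ratios of 0.956 (0.833 to 1.09) in lung and 0.790 (0.636 to 0.973) in skin. Cycling cells were also deeper, with medians of 5146 UMIs in lung and 3553 in skin against 2330 and 1998 in other cells. The part of depth in these ratios was not tested.

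**Figure D4:**
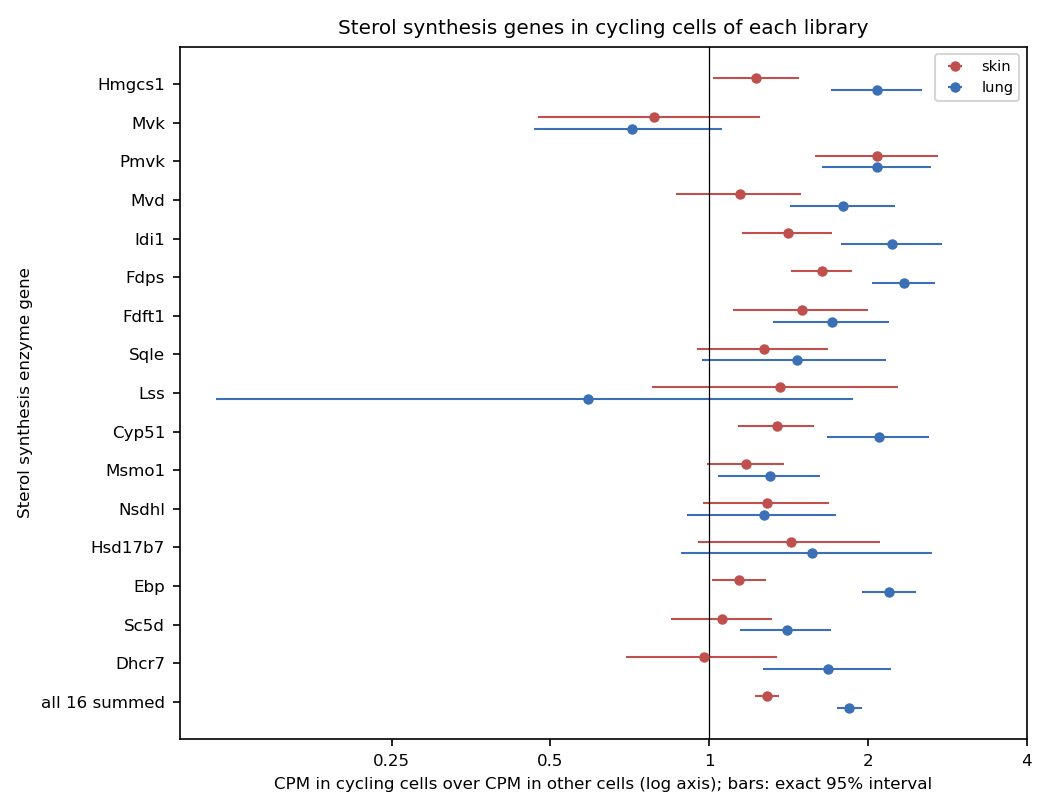
Ratio of the CPM in cycling cells over the CPM in other cells for the 16 sterol synthesis enzymes and their sum, in skin (red) and lung (blue), on a log axis with exact binomial 95% intervals. The summed ratio is 1.29 in skin and 1.84 in lung, and Pmvk is at 2.08 in both.

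Ccr7, the receptor that guides T cells to lymph nodes, had a UMI in 56.2% of lung and 12.0% of skin cells, so the tissues differ in the makeup that it marks. Within lung, 0.104% of 4818 genes were at least 2-fold higher and 1.35% lower in cells with a Ccr7 UMI. Of 18 members measured 0 were higher and 1, Scd1, was lower, at 9.86 against 61.6 CPM, and most of its UMIs lay in marked cells as given above. The summed enzymes were 319.8 CPM in lung cells with a Ccr7 UMI and 378 without, a ratio of 0.847 (0.810 to 0.885), and in skin 473 and 524, a ratio of 0.903 (0.848 to 0.962). Within skin 0 of 19 members measured were past 2-fold, against 0.624% and 0.107% of 5609 genes. In lung Dgat2 was 1.71-fold higher (1.31 to 2.26) in cells with a Ccr7 UMI and Elovl6 1.51-fold higher (1.24 to 1.83). In skin these ratios were 0.823 (0.621 to 1.08) and 0.825 (0.513 to 1.27); the differences between tissues were not tested. In CPM the skin excess of the enzymes was 1.48 (1.39 to 1.58) in cells with a Ccr7 UMI. In cells without one it was 1.39 (1.33 to 1.44). In CPM it was 1.58 (1.52 to 1.63) in cells that were not cycling and 1.1 (1.03 to 1.18) in cycling cells, where the mevalonate steps came to 1.02 (0.918 to 1.13). In marked cells the enzyme sum was lower in skin, at 0.749 (0.664 to 0.844). Ratios between the tissues in these cell sets are in CPM only. With all cells the enzyme ratio fell to 1.19 under median-of-ratios scaling and 1.14 without ribosomal and mitochondrial genes.

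Cells were last split at each library's median share of early response UMIs, a class of genes that dissociation is known to induce. In skin 1.66% of 5558 genes were at least 2-fold higher and 0.162% lower in the cells above the median, and in lung 1.42% and 0.729% of 4803. Of the members measured, 19 in skin and 17 in lung, 0 were past 2-fold either way. The enzyme sum was lower in the cells above the median, with ratios of 0.906 (0.867 to 0.947) in skin and 0.867 (0.829 to 0.906) in lung. In skin the ratio interval lay above 1 for 2 of the 33 members and below 1 for 5. Elovl6 in skin had 15.4 CPM above the median and 8.39 below, a ratio of 1.84 (1.36 to 2.51), and in lung 0.891 (0.741 to 1.07). In skin Elovl6 was below the 20 CPM minimum in both sets of cells, and 13.1% of its UMIs lay in marked cells. Scd1 in skin, also below the minimum, had a ratio of 2.52 (1.32 to 5.03) from 31 and 15 UMIs.

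Beyond the 33 genes, 63 further genes of the same metabolism in 6 lists gave a like spread. Of 33 that reached 20 CPM, 3 passed 2-fold toward skin (Hacd3, Fabp4 and Plin3) and 1 toward lung (Cd36), against 14.9% and 5.05% of all genes, with a median log2 ratio of 0.43. Hacd3, a dehydratase of very long chain elongation, had 107.5 CPM (102.5 to 112.8) in skin and 16.5 (14.9 to 18.2) in lung, and 108.8 and 16.4 CPM in unmarked cells. Plin3, a lipid droplet coat protein, had 50.9 CPM (47.5 to 54.6) and 19.4 (17.7 to 21.3). Of the 522 skin UMIs of Fabp4, 417 were in marked cells; Fabp4 is on the adipocyte list, which helps to mark them. Of the 597 lung UMIs of Cd36, a fatty acid receptor, 507 were in marked cells, and unmarked cells had 4.05 CPM.

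Smaller ratios were seen in the further lists. The droplet genes Plin2 and Hilpda had 31.4 against 15.6 CPM and 97.2 against 49.97 CPM. Of 8 fatty acid oxidation genes measured 0 were past 2-fold, against 14.9% toward skin and 5.05% toward lung over all genes; Acadvl, the mitochondrial very long chain dehydrogenase, had 73.5 and 36.1 CPM. Of 6 genes of sterol uptake, lysosomal release and oxysterol response measured 0 were past 2-fold. The 12 genes listed summed to 607 CPM in skin and 835 in lung, and without Npc2 the other 11 summed to 256 and 239.6 CPM, so that in CPM Npc2 sets the direction. Npc2, the lysosomal carrier of freed cholesterol, had 350.4 CPM (341 to 360) in skin and 595 (586 to 605) in lung, and Lipa, the lysosomal lipase, 25.7 and 40.7. Stard4, a sterol transfer protein, had 30.3 CPM in skin and 17.3 in lung.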

How the data were processed

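The authors deposited raw UMI counts per gene and barcode, with cells already called. Cell Ranger and mm10 are named in the submitters' processing notes; the lung file header gives software version 3.0.2, and the aligner settings are not given in the sources used here. Of 2 lung matrices the deeper was used, since all 8626 barcodes of the other recur in it. Genes were matched by Ensembl identifier, and positions are from GENCODE for GRCm38. UMIs were summed over Cd3 cells and scaled to CPM over the 27514 shared identifiers; a count of 3 is 0.190 CPM in skin and 0.128 in lung. Folds and ratios are plain quotients of CPM; log2 ratios and 2-fold calls used log2(CPM + 5). Poisson, binomial and Clopper-Pearson intervals came from scipy 1.17.1 under python 3.11.15. No doublets were removed and no caller was run. Cell sets were defined by marker UMIs and steps were tested on simulated data. All 33 members are accounted for. Of each further list the 4 measured genes with the widest ratio could be named. Members and lists were chosen with earlier results of these data known. No unmapped columns occurred. Hmgcs1 overlaps an antisense model, Gm48342, in the lung list only, with 4 UMIs.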

Additional observations from a re-analysis of the deposited data

How the results depend on the processing

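No paired analysis was possible because each tissue had 1 sample, and leaving out a replicate was not possible for the same reason. The members past 2-fold toward skin, 3 in CPM, numbered 0 under median-of-ratios scaling and 0 without ribosomal and mitochondrial genes. With 1 CPM added they numbered 5 of 21 measured, against 18.1% of all genes. With 10 CPM added they numbered 1 of 21, against 12.2%. As a mean over cells they numbered 5 of 18, against 16.1%. Without the 6% of cells with the most UMIs they numbered 6 of 19, against 16.5%. Without any other-type UMI they numbered 6 of 19, against 19.2%. With cells thinned to 1000 UMIs they numbered 6 of 18, against 16.6%. The members past 2-fold toward lung, 1 in CPM, numbered 2 under median-of-ratios scaling (Scd1 and Srebf2) and 3 without ribosomal and mitochondrial genes (Elovl6 added). They numbered 2 of 21 in cells with a low early response share, against 4.60% of all genes, and 555 skin cells were left there. They numbered 0 at a 50 CPM minimum, with at least 3 Cd3 UMIs and without the cells with the most UMIs. The count was also 0 as a mean over cells, after thinning and without marked cells. In the settings with a count of 0, 8 to 20 members were measured. There 4.76% to 6.22% of all genes passed 2-fold toward lung. The count stayed at 1 but named Srebf2 in cells with a Foxp3 UMI, of 20 measured, against 5.73% of all genes. Without any other-type UMI it named Elovl6, of 19 measured, against 5.33%. In both settings Scd1 was no longer past 2-fold. Leaving out marked cells was chosen after seeing the data; there 15.4% and 4.93% of all genes passed 2-fold. The median log2 ratio of 0.63 became 0.33 under median-of-ratios scaling and 0.18 without ribosomal and mitochondrial genes, and under the other settings it ranged from 0.46 to 0.75. Cyp51 was on the skin side past 2-fold in every setting except the 2 scalings. With 1 CPM added, members past 2-fold between cycling and other cells numbered 1 in skin in place of 0 and 6 in lung in place of 2. The share of all genes past 2-fold was not counted at that setting, so no reading is drawn from these numbers. Depth limits the sparse members: Lss and Acaca in both libraries, Scd1 in skin, and Abca1 and Hsd17b7 in lung had fewer than 100 UMIs.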
